A study of Dunaliella salina with 12 samples.

Results

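In Dunaliella salina, 67 of 82333 assembled genes were lower after added NaCl while their mean levels with sorbitol and with H2O2 lay within set limits of control. Members were chosen by their own values in all 12 libraries, from the values read as FPKM, sequenced fragments per unit of transcript length and of library size. Writing N, S and H for the NaCl, sorbitol and H2O2 group means of log2(FPKM + 1) minus the control mean, a member had a control mean from 10 to below 1000 FPKM, N at or below -1.2, S within 0.3 of zero and H less than 0.4 from zero. Every NaCl library also had to lie below all 9 other libraries. N, S and H of the members are therefore a description and carry no test.

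D. salina is a unicellular green alga, and the strain was labelled 435 with an age of 5 days. The cultures were grown at 25 °C and 8000 lx under 16 h light and 8 h dark each day, then spun down and held for 2 h in fresh medium that contained 1.5 M NaCl in all 4 groups. Control cells got this medium alone, NaCl cells a further 1.5 M NaCl, sorbitol cells 1.5 M sorbitol and H2O2 cells 0.4 mM H2O2, with 3 libraries in each group. Whether the libraries within a group are separate cultures is not labelled, so their spread may be technical.

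Dunaliella cells have no rigid wall. They shrink when the medium becomes more concentrated and regain volume by making glycerol as an internal solute. Added NaCl brings both ions and osmotic strength, sorbitol brings osmotic strength with no salt, and H2O2 is an oxidant. A mole of NaCl gives more dissolved particles than a mole of sorbitol, so in this design salt itself and a stronger osmotic step cannot be told apart. The files do not pair gene IDs with names and 0 of the 82333 IDs matched the 16683 genes of the reference table, so no gene is given a function here and pathway lists could not be applied. Only a few IDs are printed, and other members are called by their rank.

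The members formed the edge of a larger group of genes lowered by NaCl. In the control range lay 10073 genes, and 730 of these had N at or below -1.2. Of the 730, 657 had S below -0.3, 0 had S above 0.3, and 73 had S inside the window. The limit on H then removed 5 genes, and the order of the libraries removed 1. No gap in S separated the members from the rest, since 198 of the 730 genes had S from -0.6 to -0.3 and 54 had S from -0.3 to 0, against 19 from 0 to 0.3. Inside the sorbitol window lay 49 of 307 genes (16.0%) with N from -1.5 to -1.2, 21 of 262 (8.02%) with N from -2 to -1.5, and 3 of 161 (1.86%) with N at or below -2. N and S are taken against the same control libraries.

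**Figure D1:**
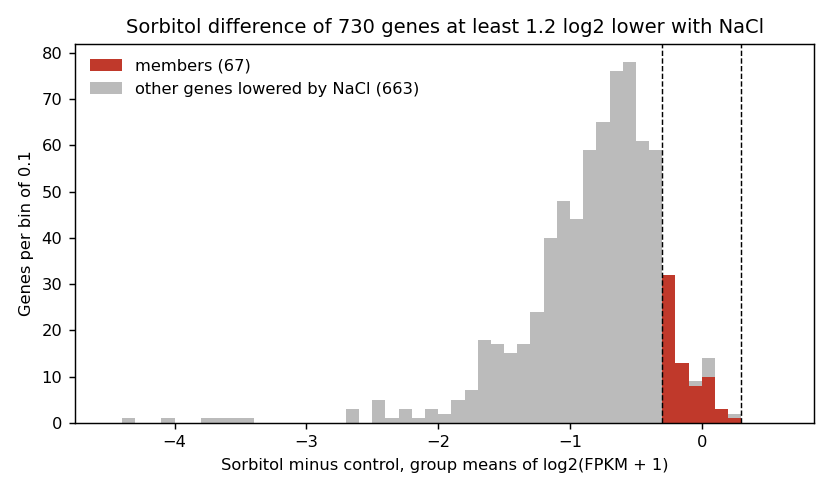
Number of genes per bin of 0.1 (y axis) by S, the sorbitol minus control difference of log2(FPKM + 1) (x axis), for the 730 genes of the control range with N at or below -1.2; red marks the 67 members, grey the others, and dashed lines the window of 0.3 on each side of zero. The members sit on the right shoulder of a single distribution whose largest part lies below -0.3.

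Across the 67 members, the median level was 18.8, 18 and 16.7 FPKM in control replicates 1, 2 and 3, and 5.53, 6.9 and 5.29 FPKM in the NaCl libraries. It was 17.8, 15.8 and 14.7 FPKM in the sorbitol libraries and 19.1, 20.2 and 18.3 FPKM in the H2O2 libraries. The NaCl medians were all low, as the rule requires gene by gene, and the medians of the other 9 libraries ran from 14.7 to 20.2 FPKM. Summed over members, the level was 2261 ± 78.9 FPKM in control (SD, n = 3), 826 ± 91.7 under NaCl, 2020 ± 128 under sorbitol and 2378 ± 73.0 under H2O2. The members made up 0.196% to 0.212% of the summed FPKM of a control library and 0.0682% to 0.0865% of that of a NaCl library. In bulk RNA, fewer cells that express a gene and less RNA per cell cannot be told apart.

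The median N was -1.38, with quartiles of -1.55 and -1.28 and a range from -2.79 to -1.204. On the FPKM scale, NaCl left a median of 35.0% of the control mean, between 11.1% and 42.7%. The falls were thus partial in most members: 44 had N above -1.5, 20 lay from -2 to -1.5, and 3 were at or below -2. NaCl means were under 10 FPKM in 51 members and under 5 FPKM in 26. Only 2 NaCl values were listed at 0, both in replicate 3 and in the members with the largest and second largest fall. In a limma fit across 27038 genes (at least 1 FPKM in at least 3 libraries), all 67 members were tested, and 67 were lower than control at an adjusted p of at most 0.05, where 17.4% of all tested genes were called lower. Against sorbitol, 67 were lower with NaCl, with 11.9% of all genes called. The rule used both comparisons, so nothing is read from these counts.

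**Figure D2:**
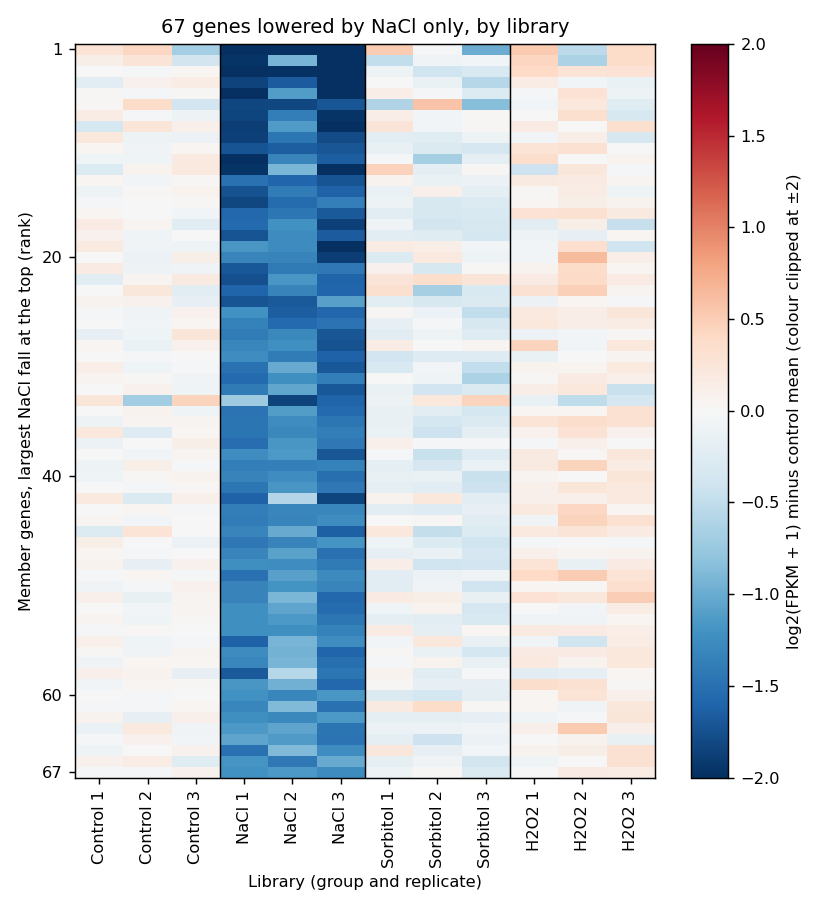
log2(FPKM + 1) minus the control mean (colour, clipped at ±2) of the 67 members (rows, by rank of the NaCl fall) in the 12 libraries (columns). The 3 NaCl columns are blue throughout, the sorbitol columns mostly pale blue and the H2O2 columns mostly pale red.

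The largest fall, with N of -2.79, belonged to c13341_g1. It was at 18.9, 21.1 and 9.36 FPKM in the control libraries and at 2.51, 2.96 and 0 FPKM with NaCl. The sorbitol libraries were at 22.7, 15.4 and 7.29 FPKM and the H2O2 libraries at 23.0, 10.5 and 20.3 FPKM. Every NaCl library was below every other library, but each of the other groups held a library well under its partners, so this member's values were uneven outside NaCl too. The second largest fall was also uneven, with NaCl libraries at 2.51, 6.17 and 0 FPKM against 13.8, 15.3 and 9.57 in control, and its highest NaCl value lay close under the lowest H2O2 value of 7.84. By contrast, the third largest fall (N of -2.04) was even within groups, with 14.3, 14.1 and 14.8 FPKM in control, 2.61, 2.89 and 2.7 under NaCl, 13.3, 10.7 and 11.4 under sorbitol and 19.2, 17.7 and 17.7 under H2O2. Its H of 0.32 was near the upper limit.

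Ranks 4 to 8 of the falls had N between -1.93 and -1.72 and control means from 10.2 to 22.2 FPKM. In the member of rank 7, control libraries were at 24.6, 21.6 and 20.5 FPKM, NaCl libraries at 5.5, 7.87 and 4.96, sorbitol libraries at 24.4, 21.3 and 22.6, and H2O2 libraries at 22.1, 28.0 and 17.6. S was 0.04 and H 0.001 in this gene, which made it the second steadiest member by the larger of the absolute S and H. The steadiest had S of 0.01 and H of 0.02 with N of -1.37, at 10.6, 11.7 and 12.7 FPKM in control and 3.39, 4.66 and 3.7 with NaCl. Both S and H were within 0.1 of zero in 5 members.

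Most members were of modest abundance: 38 had control means under 20 FPKM (56.7%, against 42.3% of the control range and 44.0% of the 657 genes with S below -0.3), 21 lay from 20 to under 50 and 8 reached 50 or more. The most abundant was c29760_g5. Its libraries stood at 410.3, 432 and 542 FPKM in control, 174, 187 and 139 under NaCl, 392.5, 425 and 383 under sorbitol and 421, 443 and 467 under H2O2, with N of -1.46, S of -0.20 and H of -0.05. The NaCl libraries lay far under the rest, and the other 3 groups overlapped. No member came near the upper limit of 1000 FPKM, since the next in abundance had a control mean of 175 ± 10.5 FPKM (SD, n = 3). That member was at 71.8 ± 4.02 FPKM with NaCl, 150 ± 17.4 with sorbitol and 193 ± 24.1 with H2O2. Ranks 3 to 6 by abundance had control means of 116, 104, 80.8 and 63.5 FPKM and NaCl means of 48.0, 40.05, 34.5 and 26.9 FPKM. All 6 of the most abundant members had S from -0.24 to -0.12, so each was a little under control with sorbitol.

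**Figure D3:**
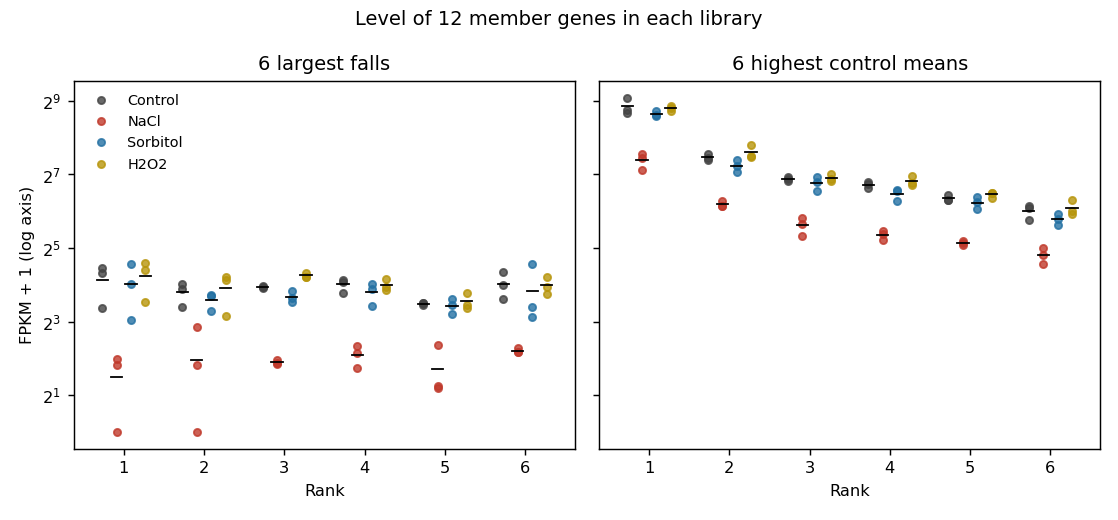
FPKM + 1 on a log axis for the 6 members with the largest NaCl fall (left) and the 6 with the highest control mean (right); each dot is 1 library, colours mark the groups and bars their means. In all 12 genes the 3 NaCl dots lie under the dots of the other groups, with a wide spread at ranks 1, 2 and 5 on the left.

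The distance between the lowest library outside NaCl and the highest NaCl library had a median of 0.82 on the log2(FPKM + 1) scale. It was over 1 in 20 members and under 0.5 in 4. The widest, 1.59, belonged to the third largest fall, and the next were 1.36, 1.30 and 1.22 in the falls of rank 13, 10 and 14. The narrowest was 0.01, in the member of rank 33, whose libraries were at 18.6, 9.24 and 21.7 FPKM in control and 9.14, 3.58 and 4.48 with NaCl. There control replicate 2 and NaCl replicate 1 were nearly equal, so this member rests on a near tie. Among genes of the control range, 2321 (23.0%) had every NaCl library below the other 9.

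Within the sorbitol window the members leaned to the low side. S was below zero in 53 of 67 members, against 43.3% of the control range, and 32 of them lay from -0.3 to -0.2, next to the limit. Its median was -0.20, against 0.05 in the control range. Sorbitol left a median of 87.7% of the control level, between 80.5% and 123%. The count below zero was 63 under median-ratio scaling, where the median S was -0.29, close to the limit. With equal library sums the count was 47 and the median S -0.12. The median S over all tested genes also moved, by -0.07 under median-ratio scaling and by 0.06 with equal sums. Shares of the control range under these scalings were not computed. The SE of a difference between groups had a median of 0.15 over the members (0.09 to 0.55), an error that is not small beside the window of 0.3. By limma 0 members were called with sorbitol in either direction, where 6.47% of tested genes were called lower and 6.70% higher. At an unadjusted limma p below 0.05, 12 members were lower and 0 higher, where 11.9% of tested genes were lower and 15.4% higher. The rule bounds S, so nothing is read from these counts, and they do not show that sorbitol left the members at control level.

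With H2O2 the members lay slightly above control. H was above zero in 50 of 67 (74.6%), close to the share of 69.0% in the control range as a whole, and its median was 0.12, against 0.09 in the range. Under median-ratio scaling H was above zero in 34 and below zero in 33, so this lean depends on how libraries are scaled. With equal sums it was above zero in 55. The median H over all tested genes also moved, by -0.09 under median-ratio scaling and by 0.02 with equal sums. H2O2 had the highest mean of the 3 groups other than NaCl in 47 members (70.1%, against 40.2% of the control range and 47.2% of the 657 genes with S below -0.3). The count became 33 under median-ratio scaling and 51 with equal sums, with no share of the control range computed under either. It rests on S as well as H, both bounded by the rule, and S leaned low in the members. Among the 657 genes sorbitol could not be highest, so this count is not read as an effect of H2O2. For limma 0 members were called with H2O2, where 0.111% of tested genes were called in either direction, and at an unadjusted p below 0.05 there were 6 higher and 0 lower, where 8.01% of tested genes were higher and 3.96% lower. Since the rule also bounds H, these limma counts do not show that H2O2 left the members at control level.

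At the limits on N, on low S and on the lowest control level, members and genes outside lay close together. The last member by N had -1.204 and the first gene outside -1.198, and by S the last member on the low side had -0.299 and the first gene outside -0.303. On the high side the nearest member had S of 0.295 and no gene beyond the window met the other conditions. By H the highest member had 0.390 and the next gene 0.404, and at the low end the values were -0.332 inside and -0.566 outside. By control level the lowest member was at 10.1 FPKM and the gene under it at 9.99. The 1 gene removed for the order of its libraries missed by 0.02 on the log2(FPKM + 1) scale.

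To read the pattern in a library that had no part in the choice, the rule was applied to 11 libraries at a time. Without NaCl replicate 1 it chose 67 genes, and in the left-out library their median difference from control was -1.39, with 67 of 67 below all 9 libraries of the other groups, against 35.9% of the control range. Without NaCl replicate 2 it chose 98, with a median of -1.07 in that library and 93 of 98 below all 9, against 29.9%. Without NaCl replicate 3 it chose 59, with a median of -1.504 and 58 of 59 below all 9, against 30.5%. The low NaCl level thus appeared in each left-out NaCl library, with the smallest size in replicate 2, where 34 of the 98 genes reached -1.2. Only the left-out library was unused, since the rule had used the 9 libraries it was set against. The control range also holds genes that NaCl did not lower, so these shares do not compare the chosen genes with others lowered by NaCl.

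The sorbitol side was less even in libraries that were not used. Without sorbitol replicate 1 the rule chose 48 genes, with a median of -0.13 in that library, and without sorbitol replicate 2 it chose 69 with a median of -0.18. Without sorbitol replicate 3 it chose 93 genes, whose median in the left-out library was -0.34 against -0.18 in the pair used, and 53 of the 93 (57.0%) lay below -0.3 there. Over the whole control range the medians of these libraries were 0.09, 0.03 and 0.05, so the chosen genes lay lower than the range in each. In left-out H2O2 libraries the medians were 0.07, 0.13 and 0.11, against 0.05, 0.12 and 0.08 in the range. Left-out control libraries had medians of 0.01, 0.01 and 0.04 relative to the other controls. Of the 67 members, 21 were chosen in all 12 of these runs, c29760_g5 among them. In these 21 the median N was -1.51 and the median S -0.07. Being chosen in every run favours genes far inside the limits, so nothing is read from these 2 medians.

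**Figure D4:**
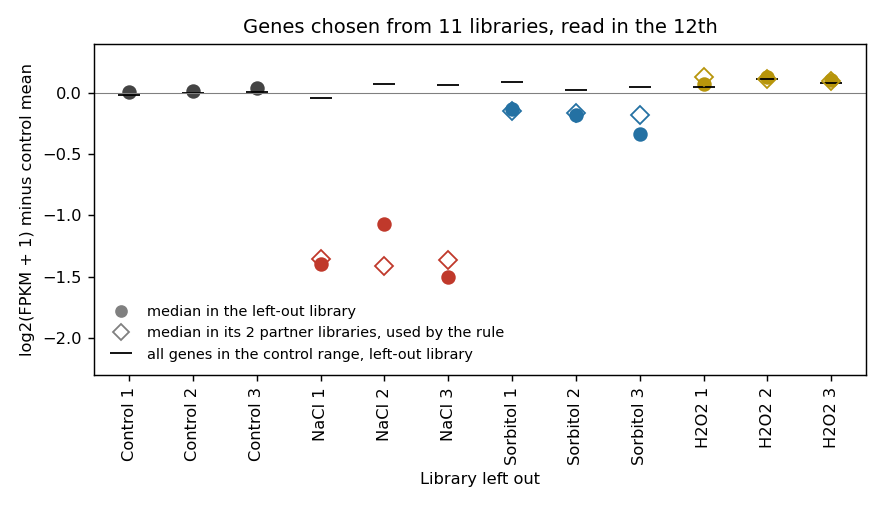
Median log2(FPKM + 1) minus the control mean (y axis) of genes chosen from 11 libraries, read in the library left out (filled dots), in its partner libraries used by the rule (open diamonds) and, for all genes of the control range, in the left-out library (dashes). NaCl dots lie between -1.504 and -1.07, and among sorbitol libraries replicate 3 is lowest at -0.34.

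Which library of a group was lowest was not fixed by the rule. Among the members NaCl replicate 2 was the highest NaCl library in 48 of 67, against 42.4% of the control range, and replicate 3 was the lowest in 34 (50.7%, against 27.6% of the range and 42.6% of the 657 genes with S below -0.3). Control replicate 2 was the lowest control library in 30 members (44.8%, against 31.3% of the range and 20.5% of the 657 genes). Sorbitol replicate 1 was highest in 38 members (against 40.6% of the range). Sorbitol replicate 3 was lowest in 31 (46.3%, against 35.2% of the range and 44.3% of the 657 genes). Relative depth, estimated from single-read steps among low values, was 1.17, 0.983 and 0.946 in NaCl replicates 1, 2 and 3 and 0.946, 0.952 and 1.06 in the sorbitol libraries, and its part in this order was not tested. The median SD of log2(FPKM + 1) within a group was 0.091 in control, 0.228 under NaCl, 0.152 under sorbitol and 0.132 under H2O2, against 0.112, 0.135, 0.121 and 0.170 in the control range. In the 657 genes with S below -0.3 it was 0.149, 0.205, 0.151 and 0.173 in the same order. The members' spread under NaCl and sorbitol was thus near that of these genes, and their control spread was smaller. NaCl levels were also the members' lowest, and the part of level in this spread was not tested.

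Each ID names an assembled component and a gene within it, in the form that de novo assemblers use. The 67 members came from 67 components, so no component held more than 1 of them, and 40 members were the only gene of theirs (59.7%, against 58.5% of the control range). The other 27 components held 65 further genes, which were not chosen by their own values, and 44 of these in 20 components had enough signal for the limma test. With NaCl 6 of the 44 (13.6%) were lower, against 17.4% of all tested genes, and 13 (29.5%) were higher, against 18.4%. With sorbitol 1 (2.27%) was lower, against 6.47% of all tested genes, and 7 (15.9%) were higher, against 6.70%. By limma 0 were called with H2O2, against 0.111% of all tested genes in either direction. At an unadjusted limma p below 0.05, 2 were lower and 0 higher, against 3.96% and 8.01% of all tested genes. The median NaCl difference of the 44 was 0.04 and that of all tested genes 0.03. The 13 genes higher with NaCl lay in 8 components, with 5 of these genes in the largest component, and the 6 lower genes in 6. With sorbitol the 7 higher genes lay in 4 components and the 1 lower gene in 1. Genes of a component were counted singly, so the shares of the 44 carry no test. RSEM divides reads that fit several transcripts, so reads may have been shared between genes of these 27 components, which was not tested.

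Some neighbours moved with the member and others against it. Beside c29760_g5 stood another abundant gene of its component, which was at 556, 601 and 685 FPKM in control and 307, 273 and 271 with NaCl, a log2 difference of -1.11 ± 0.10 (SE, limma adjusted p = 3.2e-06). Its sorbitol difference was -0.26 and its H2O2 difference -0.04, so it missed membership only through the NaCl threshold. The component of the ninth largest fall went the other way. There c29871_g5 rose from 7.34, 6.16 and 6.06 FPKM in control to 31.8, 59.2 and 52.8 FPKM with NaCl (2.66 ± 0.26, limma adjusted p = 6.5e-06), and c29871_g1 rose from 7.98 ± 1.48 to 36.5 ± 1.69 FPKM (SD, n = 3; 2.07 ± 0.20, limma adjusted p = 7.1e-06). In both genes all NaCl libraries were above all controls. The member of this component was at 18.5, 14.6 and 14.5 FPKM in control and 3.6, 5.18 and 3.84 with NaCl. Both risers were also higher with sorbitol, at 1.204 (limma adjusted p = 0.0088) and 0.74 (limma adjusted p = 0.032).

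The largest component, with 16 genes, held the member of rank 16 and 10 tested neighbours, of which 5 were higher with NaCl and 0 lower (limma, 0 lower at an unadjusted p below 0.05 as well). The highest of these went from 34.6 to 118 FPKM (1.74 ± 0.09, limma adjusted p = 6.7e-08), and the most abundant from 2362 to 3017 FPKM (0.35 ± 0.06, limma adjusted p = 0.00036), while the member fell from 11.4 to 3.22 FPKM. The lowest differences among all neighbours were -2.28 ± 0.27 (limma adjusted p = 3.0e-05) and -2.15 ± 0.28 (limma adjusted p = 7.9e-05), both from a control mean near 7.2 FPKM, under the range of the rule. The first of them was also lower with sorbitol (-1.35, limma adjusted p = 0.0057). The second had a sorbitol difference of -0.64, which was not called (limma adjusted p = 0.17) but lay outside the window of 0.3.

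**Figure D5:**
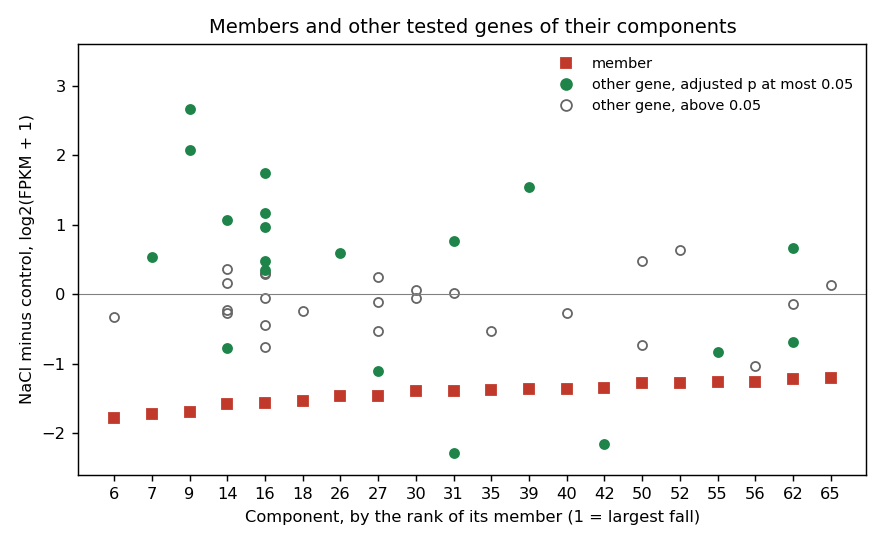
NaCl minus control difference of log2(FPKM + 1) (y axis) for members (red squares) and the 44 other tested genes (circles, filled where limma's adjusted p is at most 0.05) in the 20 components that hold such genes, in the order of the member's rank. The circles spread from -2.28 to 2.66 around zero, while the squares lie at -1.204 or below.

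The mirrored rule, with N at or above 1.2 and every NaCl library above the other 9, chose 36 genes. They were 9.55% of the 377 genes of the control range with N at or above 1.2, and the 67 members were 9.18% of the 730 with N at or below -1.2. The raised genes leaned the other way in their window, with a median S of 0.16 and S above zero in 31 of 36 (86.1%). In the control range the median S was 0.05 and S was above zero in 56.7%. The median control level of the raised genes was 21.2 FPKM, against 17.1 FPKM for the members. The 657 genes with S below -0.3 had a median N of -1.63, a median S of -0.78 and a median H of -0.01, with a median control level of 22.6 FPKM. Members and these genes were separated by the rule itself, so their differences are given without a test.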

How the data were processed

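RNA from D. salina was sequenced in 12 libraries, with group and replicate read from each title. Adapters were trimmed with cutadapt and transcript abundance estimated with RSEM, per the submitters' processing notes. Not given in the sources used here are their versions, the reference and its build. The values that the authors deposited were taken as FPKM. No source states the unit, which was inferred from 2 decimals and library sums of 1065190 to 1133348. They hold no absolute depth. Library depth relative to the mean was 0.917 to 1.21, which limits the precision of low values.

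N, S and H were computed from log2(FPKM + 1), which makes changes of low genes look smaller. The 4 groups entered 1 fit in limma 3.58.1 under R 4.3.3 with a mean-variance trend, with Benjamini-Hochberg adjustment over 27038 genes and a threshold of 0.05. It was tested on simulated data. Tables were handled in pandas 2.3.3 and numpy 2.4.6 under Python 3.11.15. The members, tests and the rule for described members were chosen with earlier results of these data known. That rule took members by size of fall, control level, steadiness and gap between groups, and the nearest genes at each threshold.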

Additional observations from a re-analysis of the deposited data

How the results depend on the processing

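The 67 members depended on where the limits lay. The rule chose 155 genes with N at or below -1.0, 23 at -1.5 and 17 with windows of 0.15 and 0.2. It chose 106 with control means from 5 FPKM, 29 from 20 FPKM, 139 with no limits on control level, and 40 in components with 1 gene, changes that follow from the limits themselves. A pseudocount of 5 gave 22 genes, 13 of them members, and lowered the members' median fall to -1.08, since a larger constant shrinks differences. With a pseudocount of 0.1 it chose 83 genes, 60 of them members. Median-ratio scaling gave 52 genes, of which 35 were members, and equal sums 81, of which 52 were. Both scalings kept 24 of the 67 members, and 15 were kept by both scalings and in all 12 runs with a library left out. Leaving out each library gave 48 to 98 genes. Over the 67 members themselves, the median N was -1.47 to -1.33 when each control or NaCl library was left out. Neighbours called lower with NaCl numbered 5 to 7 over 20 alternatives, leaving out each library included (5 to 7), and those called higher 11 to 14. With the replicate number as a block they were 6 and 12. Deviations of libraries with the same number correlated at -0.084 to 0.047 over 18 pairs, so no effect shared by replicate number was seen. Whether samples of the same number were handled together is not labelled. For 19 described members, 25 of 190 alternative values of N moved by more than the spread between replicates, and the values ran from -4.07 to -0.90. Unknown depth limits the lowest NaCl values, and no list by function could be run.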
